A study of Mus musculus with 5 samples.

Results

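The 9 genes described here encode the chemokine Cxcl12 with its receptors Cxcr4 and Ackr3, and the chemokines Cx3cl1, Cxcl16, Ccl2, Ccl3, Ccl4 and Cxcl10. They were taken by symbol and are 9 of the 25655 gene symbols counted by RNA sequencing in whole injured mouse retina. All 9 passed the filter on low counts, which left 14992 genes. The retinas came from wildtype C57BL/6 mice of both sexes, 8 to 10 weeks old, and were taken 7 days after optic nerve crush (ONC), an injury of the axons of retinal ganglion cells behind the eye. The mice were given Sorbinil, an inhibitor of aldose reductase, at 10 mg/kg or its vehicle DMSO by intraperitoneal injection, and the comparison asks how retinal gene expression after ONC differs when this enzyme is inhibited. The comparison holds 3 retinas given DMSO, numbered 1 to 3, and 2 given Sorbinil, numbered 1 and 3. Values per retina follow in this order. Sorbinil replicate 2, which the authors set aside after principal component analysis, was not analysed here. Every retina was injured, so the levels below hold no uninjured baseline. The groups stand for 3 and 2 mice. In a whole retina, fewer cells of a type and less RNA per cell cannot be told apart.

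Chemokines are small secreted or membrane-bound proteins that direct the migration of cells through G protein-coupled receptors. Cxcl12 signals through Cxcr4 and is taken up by the atypical receptor Ackr3, which recruits arrestin and clears the ligand. It is made by endothelial and perivascular cells among others and guides leukocytes, vessels and axons. Cx3cl1 is a membrane-anchored neuronal ligand whose receptor Cx3cr1 is carried in the retina by microglia. Cxcl16 is also membrane-anchored and binds Cxcr6. Ccl2 attracts monocytes through Ccr2, Ccl3 and Ccl4 attract macrophages and T cells, and Cxcl10 is an interferon-induced ligand of Cxcr3.

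Of the members, Cxcl12 was called lower, Cxcr4 is its receptor, and Cxcl10 was highest in both replicates numbered 3, which were also the female retinas. The regions before the start sites of these 3 members are shown because the genes differed in their behaviour across the retinas. Each is the stretch of 250 bases before the canonical start site on GRCm39, 5′ to 3′ on the strand of the gene, and capitals mark matches to 3 motifs searched on both strands, the interferon response element (GAAA, 2 bases of any kind, GAAA), the kappaB element (GGGA, 2 bases of any kind, TTCC) and the hypoxia response core ACGTG. The Cxcl12 stretch lies at chr6:117145246-117145495 on the plus strand, inside the first intron of 1 longer isoform. The Cxcr4 stretch lies at chr1:128520045-128520294 and the Cxcl10 stretch at chr5:92496749-92496998, both on the minus strand.
Cxcl12: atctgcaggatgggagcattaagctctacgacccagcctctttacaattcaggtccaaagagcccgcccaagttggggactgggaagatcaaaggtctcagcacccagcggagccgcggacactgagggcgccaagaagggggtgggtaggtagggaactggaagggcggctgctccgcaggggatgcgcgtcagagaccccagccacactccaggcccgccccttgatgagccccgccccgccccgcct
Cxcr4: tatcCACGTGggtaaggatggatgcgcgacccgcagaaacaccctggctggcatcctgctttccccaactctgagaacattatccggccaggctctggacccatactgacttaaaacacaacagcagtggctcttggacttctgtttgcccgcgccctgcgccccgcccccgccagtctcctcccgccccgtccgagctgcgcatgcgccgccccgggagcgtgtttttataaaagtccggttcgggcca
Cxcl10: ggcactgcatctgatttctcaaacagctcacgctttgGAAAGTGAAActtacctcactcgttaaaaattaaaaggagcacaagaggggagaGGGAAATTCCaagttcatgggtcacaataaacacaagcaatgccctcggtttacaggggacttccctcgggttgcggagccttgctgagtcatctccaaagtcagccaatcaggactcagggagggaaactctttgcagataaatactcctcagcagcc

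The Cxcl12 stretch held no match to these letters and had a GC content of 64.4%. The Cxcr4 stretch held 2 overlapping matches to the hypoxia response core, one on each strand of the same palindrome, ending 241 bases before the start site. The Cxcl10 stretch held an interferon response element from 213 to 204 bases and a kappaB element from 159 to 150 bases before the start site. The other 6 members had no match. Of 21750 protein-coding genes with such a stretch, 3.32% held the interferon response letters, 1.31% the kappaB letters and 17% the hypoxia core, so that the last is common. A match describes the letters and not the binding of a factor.

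Totals ranged from 56096541 to 90288552 counts per retina. Sorbinil replicate 1 stood apart from the other 4 retinas. It lay at 75.8 on the first principal component, where the others lay between -28.9 and -7.64, and 2605 genes were at least 2-fold below the DMSO mean in it, compared to 137 in Sorbinil replicate 3. The rod gene Sag (arrestin) was abundant in every retina and highest in Sorbinil replicate 1 at 5437 CPM (counts relative to the TMM-normalized library size), against 4276 to 5164 CPM in DMSO and 3114 CPM in Sorbinil replicate 3. The share of mitochondrially encoded counts was 1.94% to 2.66% in DMSO and 3.70% and 4.05% in Sorbinil. Counts of Y-linked genes were 2 and 4 in both replicates numbered 3 and 16268 to 17064 in the others, so the replicates numbered 3 were female and the rest male. The summed level of 5 lens genes was also high in DMSO replicate 3 (36.1 CPM) and Sorbinil replicate 3 (22.4 CPM), against 0.672 to 2.00 CPM elsewhere. That of 7 markers of pigment epithelium and choroid was highest in the same retinas (184.8 and 108.2 CPM), against 60.4 to 73.2 CPM elsewhere.

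Per kb of exon, the DMSO retinas expressed Cx3cl1 most, at a mean of 22.3 CPM per kb (18.1 to 25.2, n = 3). Cxcl16 followed at 3.55 (3.09 to 4.01) and Cxcl12 at 2.38 CPM per kb (1.84 to 2.66). These 3 ranges did not overlap each other or those of the remaining members. Cxcr4 averaged 0.835 CPM per kb (0.751 to 0.908), Cxcl10 0.631 (0.285 to 1.16), Ccl3 0.388 (0.232 to 0.480), Ackr3 0.315 (0.275 to 0.343), Ccl4 0.206 (0.164 to 0.271) and Ccl2 0.137 (0.09997 to 0.158). Among these, the neighbours Cxcr4 and Cxcl10, Cxcl10 and Ccl3, and Ccl3 and Ackr3 overlapped. The middle of this order depended on the length used. With the canonical transcript in place of all exons, a choice made after seeing the data, the first 3 genes kept their order and Cxcl10 moved above Cxcr4 with 1.29 CPM per kb. Ackr3 rose to 0.829 CPM per kb, above Ccl3 and close to Cxcr4 at 0.835.

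**Figure D1:**
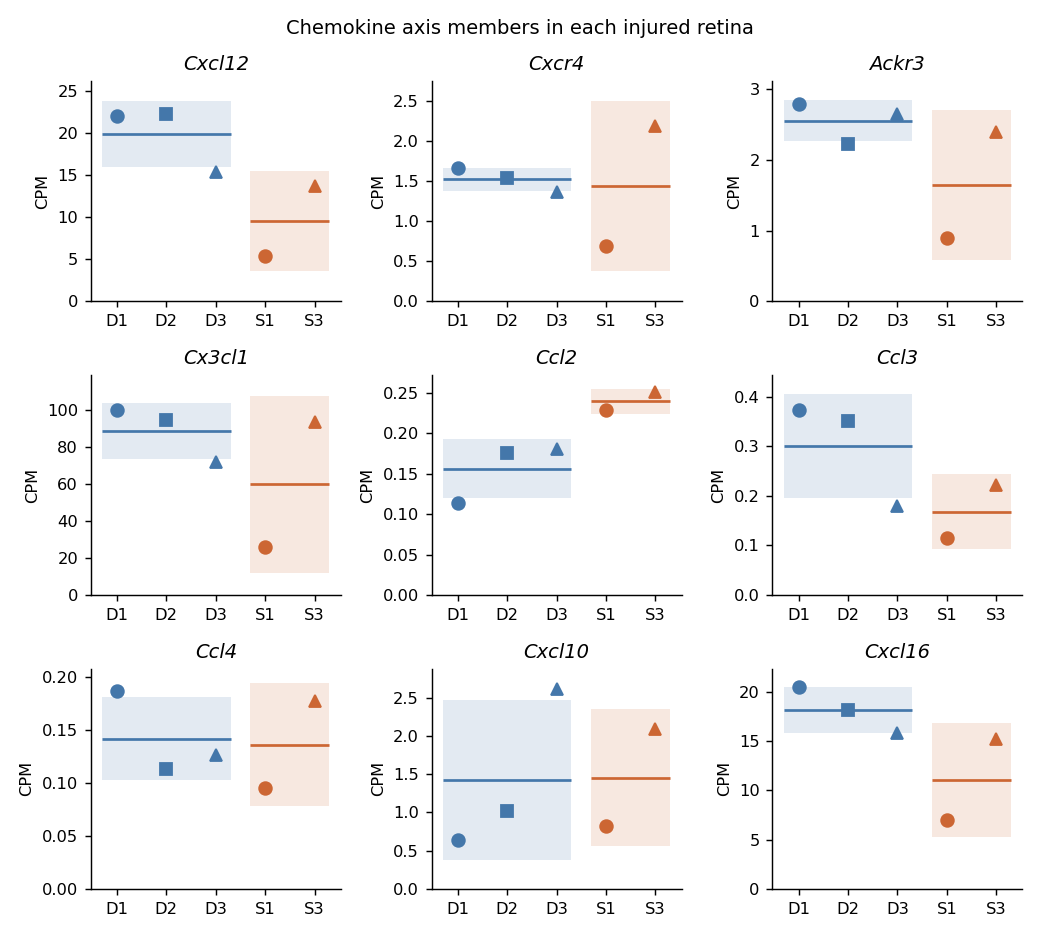
Level of each of the 9 members in every retina, in CPM on linear axes that start at 0. Blue points are DMSO and orange points Sorbinil, the marker shape gives the replicate number, lines are means and shading is the SD (n = 3 and n = 2). Cxcl12 and Cxcl16 lie below every DMSO retina in both Sorbinil retinas, and Cxcl10 is highest in both replicates numbered 3.

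Cxcl12 (ENSMUSG00000061353, chromosome 6, 117144945 to 117158328, plus strand) was lower in Sorbinil retinas. The DMSO retinas held 21.97, 22.2 and 15.3 CPM, and the Sorbinil retinas 5.35 and 13.8 CPM. Both Sorbinil retinas lay below every DMSO retina, and Sorbinil replicate 1 lay far below the rest. Within sex, the log2 difference of Sorbinil from DMSO was -2.04 in males and -0.16 in the single female of each group. The female retinas held 15.3 CPM under DMSO and 13.8 CPM under Sorbinil. Sorbinil replicate 1 is the only male Sorbinil retina, so sex and that library cannot be told apart, and the difference between the sexes was not tested. The mean was 19.8 ± 3.92 CPM (SD, n = 3) under DMSO against 9.55 ± 5.94 CPM (SD, n = 2) under Sorbinil, and the fitted log2 fold change was -1.05 (SE 0.43). It was called at the threshold of the study, an unadjusted p-value of at most 0.1 with at least a 2-fold change (edgeR quasi-likelihood test, p = 0.0499, adjusted p = 0.758, exact permutation p = 0.1). The permutation test was two-sided over the 10 groupings of the retinas, and 0.1 is the smallest value it can give. The study named Cxcl12 from these libraries, so the call is not independent evidence of its direction. The size rested on Sorbinil replicate 1: without it the log2 fold change was -0.52, which is under 2-fold and not called, while leaving out Sorbinil replicate 3 gave -1.89. Leaving out DMSO replicate 1 or 2 also ended the call, at -0.97 and -0.96. In the fit without Sorbinil replicate 1, a single female Sorbinil retina is compared to DMSO retinas of both sexes.

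Cxcr4 (ENSMUSG00000045382, chromosome 1, 128515936 to 128520044, minus strand), the signaling receptor of Cxcl12, was measured at 1.66, 1.54 and 1.37 CPM in DMSO retinas and at 0.685 and 2.18 CPM in Sorbinil retinas. The Sorbinil retinas lay on either side of the DMSO retinas, the lowest and the highest of all 5. The log2 fold change was -0.08 with a 95% interval of -1.32 to 1.16 (edgeR, p = 0.88, adjusted p = 0.962, exact permutation p = 0.8). The interval does not exclude a change of 2-fold in either direction. Without Sorbinil replicate 1 the value turned to 0.53, and without Sorbinil replicate 3 it was -1.15.

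Ackr3 (ENSMUSG00000044337, chromosome 1, 90131689 to 90144473, plus strand), the scavenging receptor, was measured at 2.78, 2.23 and 2.65 CPM in DMSO retinas and at 0.894 and 2.39 CPM in Sorbinil retinas. Sorbinil replicate 3 lay within the DMSO range and replicate 1 far below it. The log2 fold change of -0.63 (SE 0.45) did not pass the test (edgeR, p = 0.209, adjusted p = 0.758, exact permutation p = 0.2). It was -0.09 without Sorbinil replicate 1.

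Since a ratio of 2 genes within a retina does not depend on the scaling of the library, 4 ratios of members with their partners were also compared, chosen after the values of the genes were seen. The log2 ratio of Cxcl12 to Cxcr4 was 3.71, 3.83 and 3.46 under DMSO and 2.91 and 2.64 under Sorbinil. The groups did not overlap, and both Sorbinil retinas were similar in this ratio although they lay apart in both genes. The difference was -0.89, with an exact two-sided permutation p = 0.1, the smallest that these groupings allow, and an adjusted p of 0.4 over the 4 ratios. Both genes were low in Sorbinil replicate 1, and a ratio removes a shift that its genes share. How many other pairs of genes separate the groups was not computed. The log2 ratio of Cxcl12 to Ackr3 was 2.97, 3.30 and 2.52 in DMSO and 2.54 and 2.51 in Sorbinil, a difference of -0.40 with overlapping groups (exact permutation p = 0.3, adjusted p = 0.4). The log2 ratio of the receptors, Ackr3 to Cxcr4, was 0.74, 0.53 and 0.94 in DMSO and 0.37 and 0.13 in Sorbinil. It differed by -0.48 without overlap of the groups (exact permutation p = 0.2, adjusted p = 0.4). This log2 ratio is that of Cxcl12 to Cxcr4 minus that of Cxcl12 to Ackr3, so it is not independent of them.

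**Figure D2:**
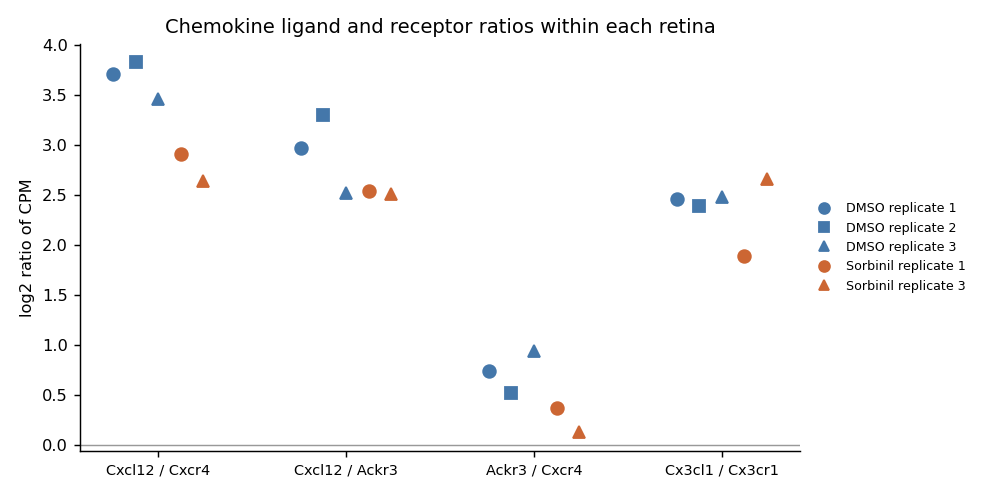
Log2 ratios of the CPM of chemokine genes and their partners within each retina, with DMSO in blue, Sorbinil in orange and the marker shape giving the replicate number. The ratio of Cxcl12 to Cxcr4 lies between 3.46 and 3.83 in the 3 DMSO retinas and at 2.91 and 2.64 in the Sorbinil retinas.

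Cx3cl1 (ENSMUSG00000031778, chromosome 8, 95498637 to 95509055, plus strand), the neuronal ligand, was the most abundant member. Its level was 100.0, 94.4 and 71.7 CPM under DMSO, against 26.0 and 93.4 CPM under Sorbinil. Sorbinil replicate 3 lay within the DMSO range, and only Sorbinil replicate 1 lay below it. A log2 fold change of -0.57 (SE 0.52) did not pass the test (edgeR, p = 0.316, adjusted p = 0.758, exact permutation p = 0.2). Leaving out Sorbinil replicate 1 gave 0.09, and leaving out Sorbinil replicate 3 gave -1.77. An antisense long noncoding gene shares 10.8% of the exon length of Cx3cl1.

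Its microglial receptor Cx3cr1 was measured at 18.1, 17.9 and 12.8 CPM in DMSO retinas and at 6.98 and 14.8 CPM in Sorbinil retinas. These groups overlapped, and the log2 fold change was -0.58 (SE 0.35, edgeR adjusted p = 0.758). The log2 ratio of ligand to receptor was 2.46, 2.40 and 2.49 in DMSO and 1.89 and 2.66 in Sorbinil, where the Sorbinil retinas lay on either side of the DMSO retinas (exact permutation p = 0.7, adjusted p = 0.7). The sheddases Adam10 and Adam17, which release Cx3cl1 and Cxcl16 from the membrane, had log2 fold changes of 0.21 and 0.16 (edgeR, adjusted p = 0.758 for both).

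Cxcl16 (ENSMUSG00000018920, chromosome 11, 70344517 to 70352620, minus strand), the other membrane-anchored ligand, was measured at 20.5, 18.2 and 15.8 CPM in DMSO retinas and at 6.98 and 15.2 CPM in Sorbinil retinas. Both Sorbinil retinas lay below every DMSO retina, although replicate 3 lay close to the lowest of them. The log2 fold change of -0.71 (SE 0.34) reached an unadjusted p of 0.0858 in the edgeR test but was under 2-fold, so it was not called (adjusted p = 0.758, exact permutation p = 0.1). It was -0.25 without Sorbinil replicate 1. Med11 and Zmynd15, on the opposite strand, share 43.2% and 41.6% of the exon length of Cxcl16. No source used here says whether strand was used in counting, so its reads are uncertain. Its receptor Cxcr6 had at most 1 count in any retina.

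Ccl2 (ENSMUSG00000035385, chromosome 11, 81926397 to 81928279, plus strand), the monocyte attractant also called MCP-1, was scarce. It had 11, 14 and 10 counts in DMSO retinas and 12 and 17 counts in Sorbinil retinas, or 0.114, 0.175 and 0.180 CPM against 0.228 and 0.251 CPM. Both Sorbinil retinas lay above every DMSO retina. Its log2 fold change was 0.63 with an SE of 0.42 and a 95% interval of -0.42 to 1.68 (edgeR, p = 0.186, adjusted p = 0.758, exact permutation p = 0.1). The 95% counting intervals of DMSO replicate 2 (0.096 to 0.294 CPM) and DMSO replicate 3 (0.0863 to 0.331 CPM) covered both Sorbinil values. That of DMSO replicate 1 (0.0568 to 0.204 CPM) covered neither. Counting intervals cover counting error only, since the reads carry no molecular identifiers. Its receptor Ccr2 had 15 counts in DMSO replicate 2 and at most 2 counts in every other retina.

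Ccl3 (ENSMUSG00000000982, chromosome 11, 83538670 to 83540191, minus strand) had 36, 28 and 10 counts in DMSO retinas and 6 and 15 counts in Sorbinil retinas, which is 0.372, 0.350 and 0.180 CPM against 0.114 and 0.221 CPM. The groups overlapped, and the log2 fold change of -0.84 had an SE of 0.54 (edgeR, p = 0.169, adjusted p = 0.758, exact permutation p = 0.3). An antisense long noncoding gene shares 35.6% of its exon length. Ccl4 (ENSMUSG00000018930, chromosome 11, 83553383 to 83555509, plus strand), its neighbour in the genome, had 18, 9 and 7 counts in DMSO retinas and 5 and 12 counts in Sorbinil retinas. Its level was 0.186, 0.113 and 0.126 CPM against 0.0951 and 0.177 CPM, again with overlap. For Ccl4 the log2 fold change was -0.05 with a 95% interval of -1.34 to 1.23, which does not exclude a change of 2-fold (edgeR, p = 0.924, adjusted p = 0.975, exact permutation p = 0.9).

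Cxcl10 (ENSMUSG00000034855, chromosome 5, 92494497 to 92496748, minus strand) varied more within each group than between them. It was measured at 0.641, 1.01 and 2.61 CPM under DMSO and at 0.818 and 2.09 CPM under Sorbinil. Both replicates numbered 3 were high and the other 3 retinas were low, with no overlap. Between treatments the log2 fold change was 0.06 with a 95% interval of -1.70 to 1.82 (edgeR, p = 0.94, adjusted p = 0.98, exact permutation p = 0.9), and its SE of 0.71 was the largest among the members. The replicates numbered 3 were the female retinas and also those with high lens genes and high markers of pigment epithelium and choroid. These features and the shared number cannot be told apart. The share of all genes that separate the retinas in this way was not computed. The level of Cxcl10 was 3.15-fold higher in the female than in the male retinas under DMSO and 2.56-fold higher under Sorbinil. Within sex, the log2 difference of Sorbinil from DMSO was 0.02 in males and -0.32 in the single female of each group, and a sex term in the edgeR fit gave -0.15. The interferon response and kappaB letters of its promoter are shown above, and its receptor Cxcr3 had 0 counts in every retina, which allows a level of up to 0.0310 to 0.0571 CPM per retina.

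**Figure D3:**
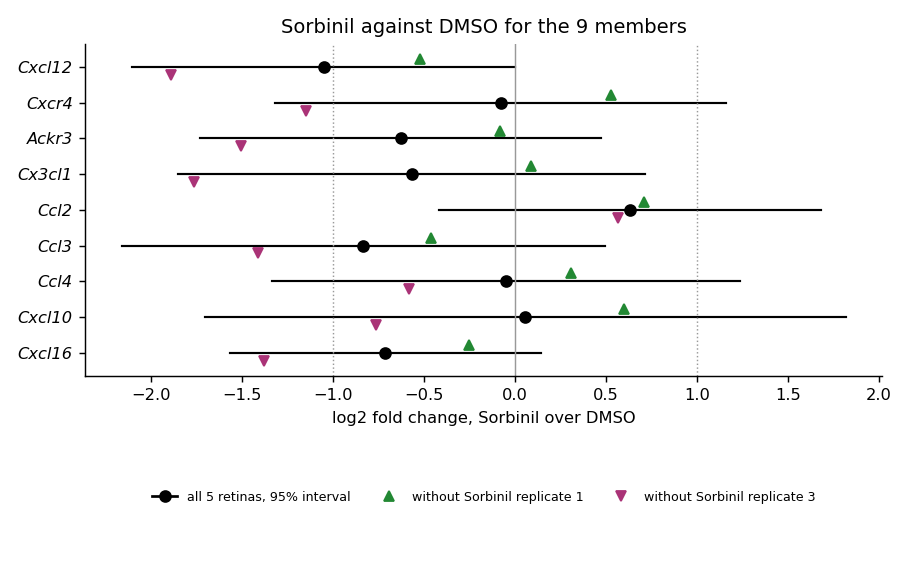
Log2 fold change of Sorbinil against DMSO for the 9 members, as black points with the 95% interval of the edgeR fit over all 5 retinas. Green upward triangles leave out Sorbinil replicate 1 and purple downward triangles leave out Sorbinil replicate 3, and the first lie from -0.52 for Cxcl12 to 0.71 for Ccl2 while the second lie from -1.89 for Cxcl12 to 0.57 for Ccl2.

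Of the 9 members, 1 (Cxcl12) was called lower and 0 were called higher, while 1.35% of all genes tested were called lower and 0.36% higher. With 9 members, a single call says little about the group. In both Sorbinil retinas, 2 members (Cxcl12 and Cxcl16) lay below every DMSO retina, and 1 (Ccl2) lay above, compared to 10.5% and 12.8% of all genes. At an adjusted p-value under 0.05 in edgeR, 0 members and 0% of all genes passed. At an unadjusted p-value under 0.05, 1 member and 751 of all genes passed, and the DESeq2 Wald test called 0 members and 21 genes at an adjusted p-value under 0.05. Fold changes were negative for 7 members and positive for 2, with a median of -0.57 against -0.01 over all genes tested. The median of the members relative to the DMSO mean was -1.15 in Sorbinil replicate 1 and 0.09 in replicate 3. The lower median was therefore that of Sorbinil replicate 1. Without Sorbinil replicate 3, 6 members were called lower (Cxcl12, Cxcr4, Ackr3, Cx3cl1, Ccl3 and Cxcl16), and without Sorbinil replicate 1 none was. In the same fits 17.4% and 0.912% of all genes were called lower. With 1 Sorbinil retina left, that retina is assumed to vary like the DMSO retinas.

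The rest of the chemokine system was read from 3 lists of ligands, receptors, and genes of shedding, cleavage and signaling, which together hold 87 genes. Of these, 50 could be tested, 14 had no count in any retina, and 0 were called in either direction at the threshold of the study. Over all genes tested, 1.35% were called lower and 0.36% higher, so 0 calls among 50 genes says little. Of the 50 genes, 40 had negative and 10 had positive fold changes, with a median of -0.27. Their median relative to the DMSO mean was -0.74 in Sorbinil replicate 1 but -0.01 in the other Sorbinil retina, the same split between the libraries as in the members. With the likelihood ratio test 1 of these genes (Ccr1) was called lower, and with no filter on low counts 2 (Ppbp and Ccl11), each from few counts.

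Of 31 other ligands, 9 could be tested, and 7 of these had negative and 2 positive fold changes. Cxcl14, a CXC chemokine of epithelia and neurons, was the most abundant at 59.5, 53.5 and 45.3 CPM in DMSO and 19.4 and 49.9 CPM in Sorbinil. Sorbinil replicate 3 lay within the DMSO range, and the log2 fold change of -0.61 (SE 0.40) did not pass the edgeR test (adjusted p = 0.758). Ccl9, a CC chemokine of myeloid cells, had a log2 fold change of -0.26 (adjusted p = 0.781), and Ccl27a, a ligand of Ccr10, one of -0.04 (adjusted p = 0.958). Both had their lowest level in Sorbinil replicate 3, unlike the members. Ccl27a shares 25.7% of its exon length with an antisense long noncoding gene and has near-identical copies, so its reads are uncertain.

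Of 21 other receptors, 7 could be tested, 6 with negative and 1 with a positive fold change. Ackr1, an atypical receptor of blood cells and venular endothelium, was measured at 28.9, 27.0 and 21.9 CPM in DMSO and at 12 and 31.6 CPM in Sorbinil, with a log2 fold change of -0.25 (edgeR, adjusted p = 0.835). Cadm3 shares 25.7% of its exon length on the same strand, so its reads are uncertain. DMSO replicate 2 held more counts than the other retinas of several genes of blood cells: the platelet chemokine Ppbp had 27 counts there and at most 7 elsewhere, and the receptor Ccr1 had 51 and at most 18 elsewhere. The chemokine Cxcl1 also had most counts there, with 19 and at most 5 elsewhere. The neutrophil genes S100a8 and S100a9 had 56 and 68 counts in the same retina and at most 16 and 11 elsewhere. Other genes of blood cells were not highest there: Ly6g and Mpo had 3 counts each in DMSO replicate 1 and at most 1 elsewhere, and the hemoglobin gene Hbb-bs had 120 counts in Sorbinil replicate 3 and 112 in DMSO replicate 2. Relative to library size, Hbb-bs was at 1.655 and 1.768 CPM in the Sorbinil retinas and at most 1.401 CPM in DMSO. The part of blood cells in these counts was not tested.

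Of 35 genes of shedding, cleavage and signaling, 34 could be tested, with 27 negative and 7 positive fold changes. Of these, 5 lay below and 3 above every DMSO retina in both Sorbinil retinas, against 10.5% and 12.8% of all genes. The G protein subunits Gnb1 and Gnai2 had log2 fold changes of 0.24 (adjusted p = 0.828) and -0.46 (adjusted p = 0.758) in the edgeR test, and the small GTPase Cdc42 one of -0.10 (adjusted p = 0.781). Gnb1 is abundant in rods, and its highest level, 15560 CPM, was in Sorbinil replicate 1. Dpp4, the peptidase that inactivates Cxcl12, was measured at 1.2, 1.35 and 1.19 CPM in DMSO and at 0.970 and 1.67 CPM in Sorbinil, on either side of the DMSO retinas (log2 fold change 0.08, edgeR adjusted p = 0.935). Grk5, a kinase that desensitizes G protein-coupled receptors, was chosen after its values were seen as the single gene of these lists with an unadjusted p under 0.05. Its level was 18.1, 18.1 and 17.9 CPM in DMSO and 36.2 and 24.96 CPM in Sorbinil, so that both Sorbinil retinas lay above every DMSO retina (log2 fold change 0.76, SE 0.18, edgeR unadjusted p of 0.00634, adjusted p = 0.758).

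**Figure D4:**
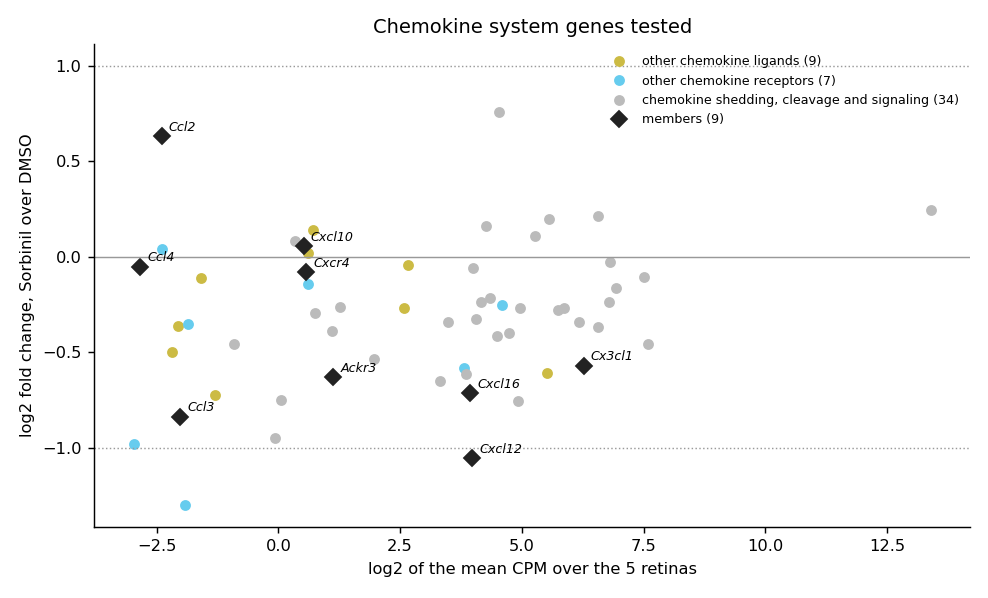
Log2 fold change of Sorbinil against DMSO for the members and the other tested chemokine genes, 1 point a gene, against the log2 of the mean CPM over the retinas, with dotted lines at a 2-fold change. Black diamonds are the members, and yellow, blue and grey points are the other ligands, the other receptors and the genes of shedding, cleavage and signaling. Of the 50 other genes, 40 lie below 0 and none was called, while 1.35% of all genes tested were called lower and 0.36% higher. Cxcl12 is the called member.

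The level of Cxcl12 was set beside markers of the cells a retina holds. All 12 endothelial markers had at least 1 count in every retina and negative fold changes, although Emcn had only 1 count in Sorbinil replicate 1, under the floor of 3 counts, and 7 of them were called lower, among them Cdh5 (VE-cadherin), Cldn5 (claudin-5) and Slco1a4, against 1.35% of all genes. Leaving out Sorbinil replicate 1 left 5 of the 12 called lower (0.912% of all genes) and leaving out Sorbinil replicate 3 gave 11 (17.4% of all genes). Cdh5 was measured at 4.41, 4.64 and 1.84 CPM in DMSO and at 0.476 and 1.47 CPM in Sorbinil, while Pecam1 did not pass the test and had its highest Sorbinil value, 9.17 CPM, in replicate 1. The summed endothelial level was 319 to 494 CPM in DMSO and 167 and 417 CPM in Sorbinil, and most of it came from Kdr and Flt1. The median endothelial marker changed by -1.25 on the log2 scale, by -2.001 in Sorbinil replicate 1 and by -0.72 in replicate 3 relative to the DMSO mean. For Cxcl12 the same values were -1.05, -1.87 and -0.51.

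Relative to the median endothelial marker, Cxcl12 lay at -0.01, 0.04 and 0.05 in DMSO retinas and at 0.14 and 0.21 in Sorbinil retinas on the log2 scale. This holds for the median marker and not for each one. Kdr (-1.11 and 0.21 in Sorbinil replicates 1 and 3 relative to the DMSO mean), Flt1 (-1.72 and -0.09), Egfl7 (-1.03 and -0.16) and Esam (-1.79 and -0.47) were less far below the DMSO mean than Cxcl12 in both retinas. Relative to the median of 14 markers of microglia and macrophages, it lay at 0.17, -0.15 and -0.01 in DMSO and at -0.98 and -0.41 in Sorbinil, below every DMSO retina. Relative to the median of 8 markers of Müller glia it lay at -0.02, 0.21 and -0.20 in DMSO and at -0.43 and -0.55 in Sorbinil. The part that endothelial cells have in the level of Cxcl12 was not tested.

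Of the 10 markers of pericytes and vascular smooth muscle, all had negative fold changes and 3 were called lower, against 1.35% of all genes. Relative to the DMSO mean, their median lay at -1.57 in Sorbinil replicate 1 and at -0.25 in replicate 3. Their summed level was 71.4 to 95.8 CPM in DMSO and 25.3 and 70.7 CPM in Sorbinil. Relative to their median, Cxcl12 lay at 0.07, 0.27 and -0.28 in DMSO and at -0.30 and -0.26 in Sorbinil, where the groups overlapped. All 14 markers of microglia and macrophages had negative fold changes and 0 were called, against 1.35% of all genes called lower. Their median fold change was -0.47, and relative to the DMSO mean their median lay at -0.89 in Sorbinil replicate 1 and at -0.10 in replicate 3. Their summed level was 172 to 260 CPM in DMSO and 117 and 194 CPM in Sorbinil. Cx3cr1, of that list, is described above, and P2ry12, a purine receptor of resting microglia, had a log2 fold change of -0.25 (edgeR, adjusted p = 0.8005). Of the 9 markers of retinal ganglion cells, the cells injured by the crush, all had negative fold changes and none was called, against 1.35% of all genes called lower. Their median fold change was -0.72, and relative to the DMSO mean their median lay at -1.38 in Sorbinil replicate 1 and at -0.22 in replicate 3. The 8 markers of Müller glia had a median of -0.54, with -1.44 in Sorbinil replicate 1 and 0.04 in replicate 3, and Cx3cl1 had -1.75 and 0.09 in these retinas. The split was not particular to Müller glia. In the same retinas the median lay at -1.25 and 0.11 for 10 markers of bipolar, amacrine and horizontal cells. It lay at -1.55 and 0 for 4 markers of astrocytes. The 10 rod markers went the other way in Sorbinil replicate 1, where their median was 0.54 above the DMSO mean, against -0.34 in replicate 3.

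**Figure D5:**
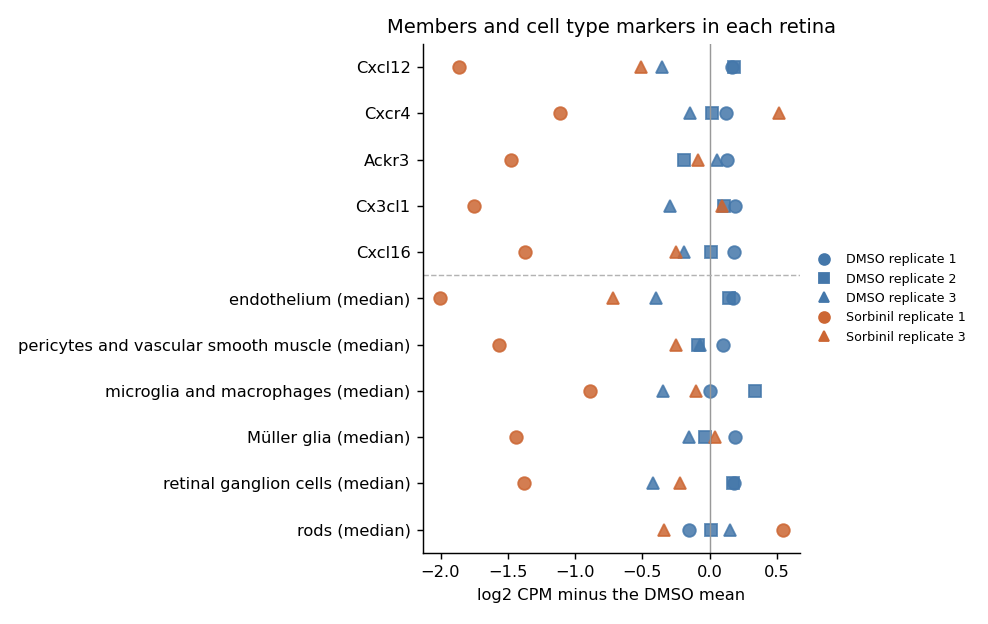
Log2 difference of each retina from the DMSO mean in log2 CPM for 5 members and, under the dashed line, for the median of 6 marker lists, with DMSO in blue, Sorbinil in orange and the marker shape giving the replicate number. Sorbinil replicate 1 is at -1.87 for Cxcl12 and at -2.001 for the median endothelial marker, and Sorbinil replicate 3 is at -0.51 and -0.72.

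Relative to the median endothelial marker, every other member except Cxcl10 also lay above every DMSO retina in both Sorbinil retinas. That median itself was at -2.001 and -0.72 in Sorbinil replicates 1 and 3. The median of all genes tested was at 0.018 and -0.007 in these retinas. A gene that did not change therefore also lies above the DMSO retinas on this scale. Cxcr4 lay at -0.05, -0.12 and 0.26 in DMSO and at 0.89 and 1.23 in Sorbinil. Ackr3 lay at -0.05, -0.33 and 0.46 in DMSO and at 0.52 and 0.63 in Sorbinil. For Cx3cl1 the Sorbinil values were 0.25 and 0.81 against 0.11 at most in DMSO, and for Cxcl16 they were 0.63 and 0.46 against 0.21 at most. Relative to the median microglial marker, Ccl3 lay at 0.34, -0.08 and -0.26 in DMSO and at -0.26 and -0.24 in Sorbinil, within or at the edge of the DMSO range, and Ccl4 at 0.36, -0.58 and 0.23 in DMSO and at 0.45 and 0.40 in Sorbinil. These positions are descriptions of 5 retinas without a test.

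The genes whose pattern over the 5 retinas was most like that of Cxcl12 were sought among 12693 other genes with at least 100 counts on average, by the root mean square difference of centred log2 CPM. The nearest was Lef1, a transcription factor of Wnt signaling, at 0.067, with 2.27, 2.40 and 1.51 CPM in DMSO and 0.495 and 1.30 CPM in Sorbinil. Next were Igfbp7, a secreted protein of vessel walls, at 0.08, Rgs5, a regulator of G protein signaling in pericytes, at 0.086, Pou4f1, a transcription factor of retinal ganglion cells, at 0.091, and Slco1a4, a transporter of brain and retinal endothelium, at 0.132. These genes were picked for their likeness to Cxcl12 in the same retinas. Their direction and rough size of change follow from that choice and are no separate evidence. Lef1, Igfbp7 and Slco1a4 were called lower, with log2 fold changes of -1.19, -1.07 and -1.18, and Rgs5 (-0.97) and Pou4f1 (-0.86) were not. Without Sorbinil replicate 1, Lef1 (-0.66), Igfbp7 (-0.50) and Slco1a4 (-0.68) were no longer called, and leaving out DMSO replicate 1 or 2 also ended the call of Lef1 and Igfbp7. Library-size scaling ended that of Igfbp7, and Rgs5 was called with a sex term (-1.18) or without Sorbinil replicate 3 (-1.97), as was Pou4f1 without that retina (-1.82). Among the members, Cxcl16 ranked 133rd in likeness to Cxcl12 at 0.225, Cx3cl1 183rd at 0.236, Ackr3 798th at 0.318 and Cxcr4 2227th at 0.459. The likeness is over 5 retinas of which Sorbinil replicate 1 stood apart, and it describes these libraries.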

How the data were processed

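RNA was sequenced from 3 DMSO and 2 Sorbinil retinas with stranded total RNA libraries. The authors trimmed the reads, used CLC Genomics Workbench to map them to GRCm39, and deposited raw total counts, 1 row for each gene symbol. The annotation release, the use of strand and the counting of reads on more than 1 gene are not given in the sources used here. Columns were assigned by the names they share with the labels, and 0 value columns were left out. Totals of 56096541 to 90288552 counts limit precision for the scarce chemokines.

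Counts were filtered with filterByExpr (minimum count 10), normalized by TMM and compared by the quasi-likelihood test of edgeR 4.0.16 (glmQLFit, glmQLFTest) in R 4.3.3, with Benjamini-Hochberg adjustment over all 14992 genes. Calls used the threshold of the study (unadjusted p-value not above 0.1, change not below 2-fold). Single genes and ratios were also tested by an exact permutation test over the retinas, for genes on log2(CPM + 0.01). The prior count of log2 CPM was 2, and floors are 3 counts. The smallest chi-square between retinas was 24.6 per degree of freedom, well above sampling noise, so none was a repeat of another.

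The members, gene lists and tests were chosen with earlier results of these data known. The genes named are the members, the called genes and the 3 most abundant genes of each chemokine list, the sheddases, Dpp4 and the receptors of the member ligands, the 5 genes most like Cxcl12, and of each marker list the first genes listed. Further genes named were not picked by this rule, among them other endothelial markers, Ppbp, Ccr1, Cxcl1 and genes of blood cells. Positions, exon lengths and overlaps are from GENCODE vM39. Y-linked genes gave the sex. Some results are not reported here. The steps were tested on simulated data. Alternatives were other filters, scalings, thresholds and tests (DESeq2 1.42.0), a replicate block, a sex term, and leaving out each retina.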

Additional observations from a re-analysis of the deposited data

Results flagged for a closer look

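Of 39 tested genes with values in the text, 17 moved in opposite directions in the sexes, as did 60.3% of all genes tested, each Sorbinil retina lying on the outer side of every DMSO retina of its own sex. Each sex holds 1 Sorbinil retina, the male one is Sorbinil replicate 1, and sex and that library cannot be told apart, so the difference between the sexes was not tested. On the log2(CPM + 0.01) scale, the Sorbinil minus DMSO difference was -1.21 in males and 0.67 in females for Cxcr4 (females minus males 1.88), -1.9 and 0.38 for Cx3cl1 (2.28), -1.58 and 0.28 for Ccl3 (1.86), and -0.56 and 0.46 for Ccl4 (1.02). For Ccl3 and Ccl4 these rest on few counts.

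Outside the members, the female minus male value was positive for Cxcl14 (1.68), Ackr1 (1.75), Cx3cr1 (1.57), Gnai2 (1.49), Dpp4 (0.87), Pou4f1 (2.04), Kdr (2), Flt1 (1.95) and P2ry12 (1.27). It was negative for Ccl27a (-0.82), Gnb1 (-1.12), Adam10 (-0.55) and Sag (-1.05).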

How the results depend on the processing

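Over 10 other filters, scalings, tests and terms, the log2 fold change of Cxcl12 ranged from -1.19 to -1.05 and it was called in each. The number of members called, 1, became 2 with no fold limit and 0 at an adjusted p-value under 0.05, and ranged from 0 to 6 when 1 retina was left out: 0 without DMSO replicate 1, DMSO replicate 2 or Sorbinil replicate 1, 2 without DMSO replicate 3 and 6 without Sorbinil replicate 3. Of the other chemokine system genes 0 were called, with 2 under no filter, 1 under the likelihood ratio test and 2 with no fold limit, and 0 to 21 when 1 retina was left out (21 without Sorbinil replicate 3). Over all genes 257 were called, with 408 under no filter, 148 with at least 10 counts in every retina, 168 at p of at most 0.05, 1696 with no fold limit, 0 at an adjusted p-value under 0.05, 307 with a sex term, and 164 to 2903 when 1 retina was left out. The cause of these changes was not tested.

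Some fold changes changed sign when 1 retina was left out, and their lowest and highest values follow. The lowest came without Sorbinil replicate 3 and the highest without Sorbinil replicate 1 for Cxcr4 (-1.15 to 0.53), Cx3cl1 (-1.77 to 0.085), Ccl4 (-0.59 to 0.30), Ackr1 (-1.11 to 0.29), Gnai2 (-1.16 to 0.026) and Dpp4 (-0.36 to 0.43), and the reverse held for Gnb1 (-0.28 to 0.63), Adam10 (-0.040 to 0.44), Ccl9 (-0.65 to 0.052) and Ccl27a (-0.29 to 0.19). Cxcl10 ran from -0.77 without Sorbinil replicate 3 to 0.83 without DMSO replicate 3. With a sex term Cxcl10 (-0.15) and Dpp4 (-0.0028) turned. Library-size scaling moved the median of all genes from -0.008 to -0.11.

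Replicate numbers were shared between the groups, and neither the labels nor the study says that a number marks a pair. The deviations of retinas with the same number had r = -0.243 for number 1 and -0.125 for number 3, but with 2 Sorbinil retinas their deviations mirror each other, so these values do not decide the pairing. With the replicate number as a replicate block, 1 member and 203 genes were called, Lef1 was not called (-1.18) and Rgs5 was (-1.11).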
